A study of Mus musculus with 8 samples.

Results

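Neuronal synapse genes encode the proteins that load, release and receive neurotransmitter. The 43 genes described here were taken from a fixed list of names, out of 21755 protein-coding genes on chromosomes 1 to 19 and X in the mouse annotation. They comprise 17 genes of vesicle release, 4 of synaptic adhesion, 6 of the postsynaptic scaffold, 7 receptor subunits, 7 genes of transmitter synthesis and transport and 2 other neuronal genes. For each gene, SOX9 coverage was measured in a window of 1 kb to either side of the gene's annotated start (start site) and over the gene with 5 kb added at either end (gene body).

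Nuclei were isolated from the spinal cord of adult wild-type (WT) C57BL/6 mice, and SOX9 was mapped by CUT&Tag. In this assay an antibody directs a transposase to a chromatin protein, and the DNA fragments cut out near it are sequenced. Mice received a contusion injury and were examined 1 day later (1 dpi), or were left uninjured. Each condition had 1 male (M) and 1 female (F) SOX9 library from different animals, with a control made from part of the same nuclei without the SOX9 antibody. Each of the 4 groups (SOX9 uninjured, SOX9 1 dpi, control uninjured and control 1 dpi) therefore holds 2 libraries. The tissue came from the lesion, or from the same level of the uninjured cord, and by the sample records the nuclei were sorted on a DNA stain, with no marker of a cell type named. The published methods instead refer back to a sort that also used antibodies to NEUN or SOX10, so the share of neurons and oligodendrocytes among the nuclei is not known.

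At a chemical synapse, vesicles docked by a SNARE complex fuse with the membrane of the axon terminal when calcium enters, and the transmitter they hold binds receptors anchored in a scaffold across the cleft. Neurons of the spinal cord use glutamate, GABA, glycine and acetylcholine, each with its own synthetic enzyme or transporter. SOX9 is a transcription factor of the SOX family that is known in the adult central nervous system mainly from astrocytes and ependymal cells, and it is not a marker of mature neurons.

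The SOX9 libraries held 1869806 (uninjured M), 7209462 (uninjured F), 2513522 (1 dpi M) and 2381412 (1 dpi F) fragments on these chromosomes. The uninjured F library thus stood apart, and with fragments on all sequences counted it had 3.81 times the depth of the shallowest. Its fragments averaged 223 bp against 256, 262 and 264 bp in the uninjured M, 1 dpi M and 1 dpi F libraries. The controls held 22707 (uninjured M), 46637 (uninjured F), 52684 (1 dpi M) and 10892 (1 dpi F) fragments. Among control fragments that overlapped no other fragment of their library, 93.6% (uninjured M), 82.4% (uninjured F), 86.2% (1 dpi M) and 91.4% (1 dpi F) shared both of their ends with a fragment from a SOX9 library. Over the gene bodies of the synapse genes these shares were 94.6%, 87.5%, 88.3% and 93.8% in the same order. After the ends were shifted by 1 kb, at most 0.0430% matched in any control. Among SOX9 libraries, 1.65% to 3.99% of such fragments matched another SOX9 library. The control values are given below for completeness, and they are not an independent background for these genes.

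A level is the coverage per base in a window divided by the mean coverage per base of that library, so that 1 is the library mean. At start sites the median level of the 43 synapse genes was 3.32 (uninjured M), 8.22 (uninjured F), 5.77 (1 dpi M) and 4.88 (1 dpi F). Other protein-coding genes had medians of 2.75, 4.56, 3.54 and 3.17 in the same libraries. Every SOX9 library thus had a higher median over the synapse genes, with the highest value in the uninjured F library on both sides. Over gene bodies the medians were 1.60, 2.09, 1.47 and 1.45 for the synapse genes and 1.45, 1.62, 1.53 and 1.5 for other genes, and at 1 dpi the synapse genes were the lower of the pair. In the controls the median start-site level was 0 in each library, and the gene-body medians were 1.18 (uninjured M), 1.52 (uninjured F), 1.54 (1 dpi M) and 0.718 (1 dpi F). With the 43 start-site windows pooled, the control level was 7.87, 10.3, 11.1 and 1.83 in the same order, from 6, 14, 19 and 1 fragments. The pooled SOX9 level was 5.59, 11.99, 8.13 and 6.75. The control was thus above its SOX9 library in both M pairs and below it in both F pairs.

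**Figure D1:**
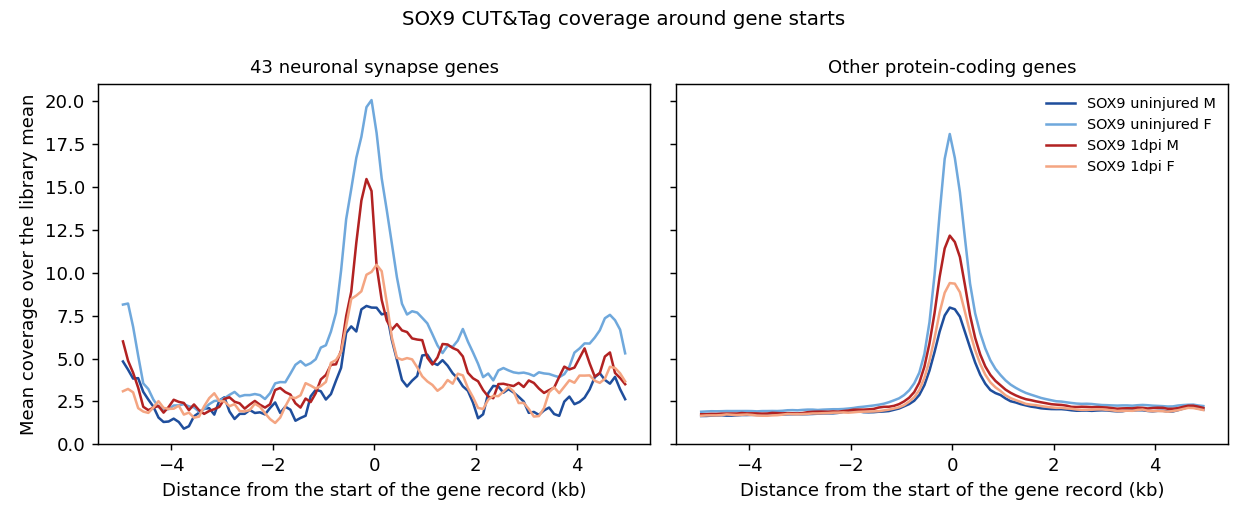
Mean SOX9 coverage over the library mean (vertical axis) against distance from the gene's annotated start in kb (horizontal axis, 100-bp bins), for the 43 synapse genes and for other protein-coding genes, with a line for each SOX9 library. All 4 libraries peak at the start in both panels, and the lines for the synapse genes are uneven because they average 43 genes.

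In the plot of coverage around gene starts, the mean level of the synapse genes within 500 bp of the start was 7.15 (uninjured M), 15.8 (uninjured F), 10.5 (1 dpi M) and 8.61 (1 dpi F). Beyond 4 kb from the start it was 3.12, 5.41, 3.82 and 3.20, which gives ratios of 2.29, 2.92, 2.75 and 2.69. Other genes had higher ratios in the same libraries, at 3.46, 6.01, 4.71 and 4.05. The synapse genes had a higher mean level than other genes both at the start and beyond 4 kb from it.

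Start-site windows of all 43 genes together held 393 (uninjured M), 2910 (uninjured F), 747 (1 dpi M) and 573 (1 dpi F) SOX9 fragments. As a share of each library this was 0.0210% (95% Wilson interval 0.0190% to 0.0232%), 0.0404% (0.0389% to 0.0419%), 0.0297% (0.0277% to 0.0319%) and 0.0241% (0.0222% to 0.0261%). Gene-body windows held 0.611% (0.6% to 0.622%), 0.755% (0.748% to 0.761%), 0.613% (0.604% to 0.623%) and 0.577% (0.568% to 0.587%) of the fragments. In both windows the uninjured F library had the highest share, and its interval did not reach that of any other SOX9 library. The intervals cover counting error only. The controls held 6, 14, 19 and 1 fragments over the start sites of all 43 genes (uninjured M, uninjured F, 1 dpi M, 1 dpi F), and 19 of the 43 start sites held none in any control.

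Because synapse genes are long, with a median of 69.0 kb against 17.4 kb for other protein-coding genes, each was ranked among other protein-coding genes within 25% of its own length. At start sites the median gene lay above 58.9% of genes of like length, and 28 of 43 lay above the midpoint. Per library this median was 51.1 (uninjured M), 61.2 (uninjured F), 60.0 (1 dpi M) and 57 (1 dpi F). Over gene bodies the median gene lay above 68.7% of genes of like length, with 30 of 43 above the midpoint, and the libraries gave 68.5, 73.9, 69.3 and 62.9. When the genes compared also had a GC content within 3 percentage points in the window, the start-site median was 50.0 and the gene-body median 68.2. On that comparison 21 of 43 lay above the midpoint at start sites and 31 of 43 over gene bodies. At start sites 5 of the 43 then had fewer than 20 genes to be compared with, down to 1 for Rims2 and 3 for Dlg2. Over the other 38 the start-site median was 57.7, against 61.3 for the same genes without the GC condition. These ranks are descriptions and were not tested.

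**Figure D2:**
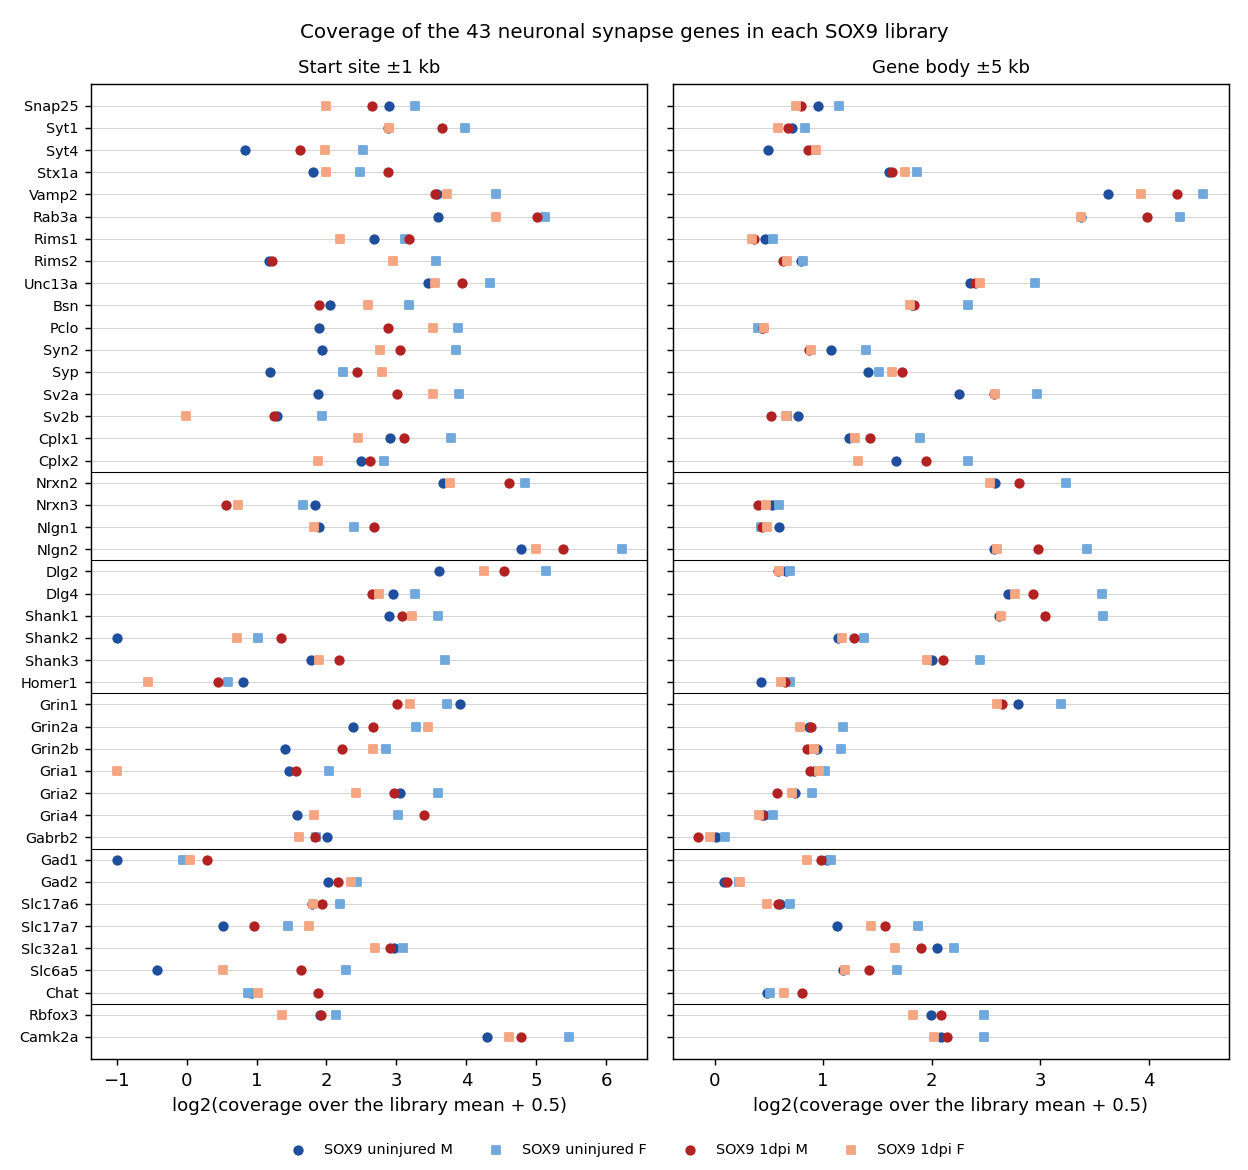
Level of each of the 43 synapse genes at the start site (left) and over the gene body (right) on a log2 scale, with a point for each SOX9 library and lines dividing the groups by role (from the top: vesicle release, synaptic adhesion, postsynaptic scaffold, receptor subunits, transmitter synthesis and transport, other neuronal). The uninjured F point is the highest of the 4 in 29 genes at start sites and in 36 genes over gene bodies.

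The genes of vesicle release had a median start-site level of 6.68 and a median gene-body level of 2.3 over the SOX9 libraries. Of the 17, 14 lay above the midpoint of genes of like length at the start site and 12 over the gene body. With GC content matched as well, Rims2, Bsn, Syp, Cplx1 and Cplx2 went below it at the start site and Syt4 above. Over the gene body Stx1a, Syp and Cplx2 then went below it and Snap25, Syt4, Rims1 and Pclo above. Vamp2, the vesicle SNARE protein synaptobrevin, had the highest gene-body level of all 43 genes, at 11.8 and 22.2 in the uninjured M and F libraries and 18.7 and 14.8 in the 1 dpi M and F libraries. Rab3a, a small GTPase of synaptic vesicles, followed with 9.85 and 19 in the uninjured M and F libraries and 15.3 and 9.87 in the 1 dpi M and F libraries. At its start site Rab3a had levels of 11.6 and 34.3 in the uninjured M and F libraries and 31.7 and 21 in the 1 dpi M and F libraries, below only Nlgn2 and Camk2a among the synapse genes. In each of the windows given here the uninjured F library was the highest and the uninjured M library the lowest.

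Both are short genes, of 3.90 and 4.00 kb, and the flanks made up most of their windows. The highest 1-kb tile of the Vamp2 window lay at chr11:69095001-69096000, over Per1, a gene of the circadian clock, with levels of 35.0 and 80.7 in the uninjured M and F libraries and 68.3 and 46.4 at 1 dpi. Without the flanks, the Vamp2 level averaged 10.8 ± 3.37 (SD over the 4 SOX9 libraries), against 16.9 ± 4.52 with them. The highest tile of the Rab3a window lay by the start of Mpv17l2, but without flanks Rab3a averaged 17.0 ± 6.14, against 13.5 ± 4.45 with them.

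The target-membrane SNARE genes were lower. Snap25 had start-site levels of 6.97 and 9.15 in the uninjured M and F libraries and 5.77 and 3.50 in the 1 dpi M and F libraries, and gene-body levels of 1.43 and 1.72 in the uninjured M and F libraries and 1.23 and 1.18 in the 1 dpi M and F libraries. Its gene body lay above 49.9% of genes of like length. Stx1a, which encodes syntaxin-1A, averaged 4.6 ± 1.74 at its start site and 2.79 ± 0.270 over the body. The calcium sensor gene Syt1 had start-site levels of 6.83 and 15.3 in the uninjured M and F libraries and 12.1 and 6.91 in the 1 dpi M and F libraries. Over its 513-kb body Syt1 stayed near the library mean, with levels of 1.14 and 1.28 in the uninjured M and F libraries and 1.1 and 1.00 in the 1 dpi M and F libraries. Syp, which encodes the vesicle protein synaptophysin and lies on chromosome X, had start-site levels of 1.78 and 4.23 in the uninjured M and F libraries and 4.92 and 6.41 in the 1 dpi M and F libraries, and gene-body levels of 2.15 and 2.35 in the uninjured M and F libraries and 2.81 and 2.60 in the 1 dpi M and F libraries. In both windows of Syp the 1 dpi libraries were the higher pair, but over the gene body this held only with the flanks. Without them Syp had levels of 2.46 and 2.7 in the uninjured M and F libraries. In the 1 dpi M and F libraries it then had 3.35 and 2.41.

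Active-zone genes, whose proteins position vesicles for release, divided by length. Unc13a (47.3 kb) and Bsn (94.4 kb) had mean gene-body levels of 5.39 ± 1.23 and 3.4 ± 0.761. Rims1 (520 kb), Rims2 (486 kb) and Pclo (349 kb) had 0.849 ± 0.0839, 1.16 ± 0.107 and 0.850 ± 0.0257. Rims1 was lower than all but Gad2 and Gabrb2, at 0.883 and 0.951 in the uninjured M and F libraries and 0.789 and 0.771 in the 1 dpi M and F libraries. Its start site was not low, with levels of 5.89 and 8.22 in the uninjured M and F libraries and 8.52 and 4.08 in the 1 dpi M and F libraries. The remaining vesicle genes (Syt4, Syn2, Sv2a, Sv2b, Cplx1 and Cplx2) had mean gene-body levels from 1.07 in Sv2b to 5.64 in Sv2a.

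Adhesion genes link the pre- and postsynaptic membranes. Nlgn2, a neuroligin of inhibitory synapses, had the highest start-site level of all 43 genes, at 27.1 and 74.2 in the uninjured M and F libraries and 41.0 and 31.4 in the 1 dpi M and F libraries. All 4 values lay above those of Nrxn3, which encodes a presynaptic neurexin and had start-site levels of 3.08 and 2.67 in the uninjured M and F libraries and 0.977 and 1.17 in the 1 dpi M and F libraries. The start of Nlgn2 lies within 1 kb of the start of Tmem256, and the coverage cannot be assigned to either gene. Nrxn2 averaged 19.4 ± 7.95 at its start site and 6.54 ± 1.66 over its body, above 99.7% of genes of like length. Nlgn1 and Nrxn3, of 906 and 1612 kb, had mean gene-body levels of 0.899 ± 0.0750 and 0.914 ± 0.0797.

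Scaffold proteins hold receptors opposite the release site. Dlg4, which encodes PSD-95, followed Vamp2 and Rab3a in gene-body level, at 6.01 and 11.4 in the uninjured M and F libraries and 7.16 and 6.31 in the 1 dpi M and F libraries. Its start-site levels were 7.22 and 9.07 in the uninjured M and F libraries and 5.76 and 6.20 in the 1 dpi M and F libraries. The highest 1-kb tile of Dlg4 lay inside the gene at chr11:70021001-70022000, away from any annotated coding start, with levels of 29.0 and 113 in the uninjured M and F libraries and 53.2 and 54.4 at 1 dpi. Shank1 averaged 7.65 ± 2.74 over its body, and Shank3 averaged 3.91 ± 0.720. The highest tile in the Shank1 window was in its flank over Clec11a, with levels of 66.4 and 147 uninjured and 93.7 and 54.4 at 1 dpi (M and F). Without flanks Shank1 averaged 6.47 ± 2.2.

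Start sites of the scaffold genes spanned a wide range. Homer1 and Shank2 were lower than all but Gad1, with 1.25 and 1.01 in the uninjured M and F libraries and 0.867 and 0.180 in the 1 dpi M and F libraries for Homer1 and 0 and 1.52 in the uninjured M and F libraries and 2.04 and 1.16 in the 1 dpi M and F libraries for Shank2. These windows held 11 and 13 fragments over the 4 SOX9 libraries, too few for a comparison between libraries. At the start of its principal transcript Homer1 had 3.07 ± 1.52, so its rank holds only for the gene record's start. Dlg2 came next after Rab3a at the start site, at 21.9 ± 9.66, and shares its start with Tmem126b. At the start of its principal transcript Dlg2 had 5.60 ± 1.42, so that rank holds only for the gene record's start. Over its 1973-kb body Dlg2 had a level of 1.05 ± 0.0576.

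Glutamate and GABA receptor subunits had a median gene-body level of 1.41. Grin1, the obligatory subunit of NMDA receptors, was the exception at 6.44 and 8.63 in the uninjured M and F libraries and 5.77 and 5.58 in the 1 dpi M and F libraries. Its start-site levels were 14.5 and 12.7 in the uninjured M and F libraries and 7.51 and 8.66 in the 1 dpi M and F libraries, with both uninjured libraries above both 1 dpi libraries. Gria2, an AMPA receptor subunit, had start-site levels of 7.78 and 11.6 in the uninjured M and F libraries and 7.34 and 4.88 in the 1 dpi M and F libraries, and gene-body levels of 1.17 and 1.36 in the uninjured M and F libraries and 0.991 and 1.13 in the 1 dpi M and F libraries. In both windows of Gria2 the 1 dpi libraries were the lower pair. Gabrb2, a GABA-A receptor subunit, had the lowest gene-body level of the 43, at 0.511 and 0.571 in the uninjured M and F libraries and 0.4 and 0.470 in the 1 dpi M and F libraries. It lay above 12.7% of genes of like length, and above 36.0% of those with a like GC content as well. Grin2a, Grin2b, Gria1 and Gria4 had mean gene-body levels from 0.873 to 1.46.

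Genes of transmitter synthesis and transport had the lowest start-site median of the groups, at 2.03, and 1 of 7 lay above the midpoint of genes of like length. Gad1, which makes GABA, had the lowest start-site level of the 43, at 0 and 0.468 in the uninjured M and F libraries and 0.724 and 0.532 in the 1 dpi M and F libraries, from 6 fragments. Its principal transcript starts elsewhere, where the mean level was 5.08 ± 2.28, so this rank holds only for the gene record's start. Its gene-body levels were 1.55 and 1.61 in the uninjured M and F libraries and 1.47 and 1.31 in the 1 dpi M and F libraries. Gad2, the other enzyme for GABA, was lower than all but Gabrb2 over the gene body, at 0.563 and 0.670 in the uninjured M and F libraries and 0.584 and 0.677 in the 1 dpi M and F libraries. Slc17a6, a vesicular glutamate transporter, had start-site levels of 2.96 and 4.06 in the uninjured M and F libraries and 3.33 and 2.99 in the 1 dpi M and F libraries, and gene-body levels of 1.02 and 1.12 in the uninjured M and F libraries and 1.00 and 0.900 in the 1 dpi M and F libraries. Slc6a5, the neuronal glycine transporter, had 0.242 and 4.36 in the uninjured M and F libraries and 2.60 and 0.929 in the 1 dpi M and F libraries at the start site and 1.77 and 2.7 in the uninjured M and F libraries and 2.19 and 1.80 in the 1 dpi M and F libraries over the body.

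Chat, which makes acetylcholine and is known in the cord from motor neurons, had start-site levels of 1.39 and 1.33 in the uninjured M and F libraries and 3.18 and 1.53 in the 1 dpi M and F libraries, from 18 fragments. Over the gene body it had 0.898 and 0.920 in the uninjured M and F libraries and 1.25 and 1.06 in the 1 dpi M and F libraries, with both 1 dpi libraries above both uninjured ones. The window of Chat also contains Slc18a3, the vesicular acetylcholine transporter gene. Slc32a1, the vesicular transporter of GABA and glycine, was the highest of the group at 7.06 ± 0.858 at the start site and 3.4 ± 0.610 over the body, and Slc17a7 averaged 1.87 ± 0.847 and 2.39 ± 0.613.

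Rbfox3 encodes the neuronal nuclear antigen NeuN. Its gene-body levels were 3.49 and 5.07 in the uninjured M and F libraries and 3.75 and 3.05 in the 1 dpi M and F libraries, above 99.0% of genes of like length. Its start-site levels were 3.27 and 3.88 in the uninjured M and F libraries and 3.28 and 2.08 in the 1 dpi M and F libraries. These hold for the gene record's start, and at the start of its principal transcript Rbfox3 averaged 7.84 ± 2.36. Camk2a, a kinase of the postsynaptic density, was below only Nlgn2 at the start site, at 19.1 and 43.9 in the uninjured M and F libraries and 27.1 and 23.9 in the 1 dpi M and F libraries. Over the gene body it had 3.74 and 5.09 in the uninjured M and F libraries and 3.92 and 3.57 in the 1 dpi M and F libraries.

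**Figure D3:**
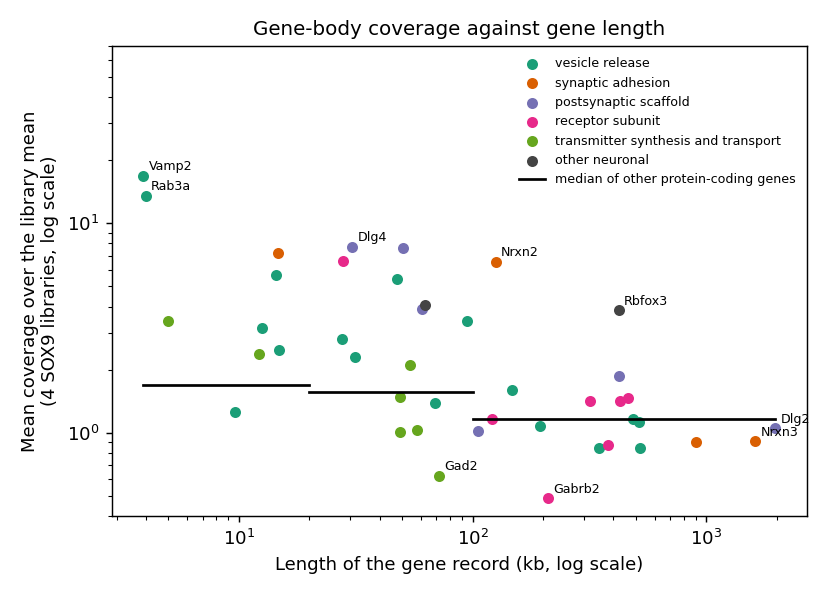
Mean gene-body level over the 4 SOX9 libraries (vertical axis, log scale) against gene length in kb (horizontal axis, log scale), with a point for each of the 43 synapse genes colored by role and bars at the median of other protein-coding genes under 20 kb, from 20 to 100 kb and over 100 kb. The 19 synapse genes over 100 kb have a median of 1.13, against 1.16 for other genes of that length.

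Over gene bodies the levels differed with gene length. The 9 genes under 20 kb had a median level of 3.4 against 1.69 for 11678 other genes of that length. The 15 genes of 20 to 100 kb had 2.79 against 1.57, and the 19 genes over 100 kb had 1.13 against 1.16. Window GC content went the same way: it was 51.3%, 50.8% and 38.9% in these classes of synapse genes, against 45.9%, 44.2% and 42.4% in other genes. At start sites the medians were 7.06, 5.66 and 5.55 for synapse genes and 2.64, 4.80 and 4.28 for other genes. Whether base composition accounts for these levels was not tested.

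The highest 1-kb tile lay within 1 kb of an annotated coding start of the same gene in 30 of 43 members. In 7 it lay only by the start of another coding gene, as in Vamp2, Rab3a and Shank1, and in 6 by none. Another protein-coding gene reached into the gene-body window of 19 members. For 7 members the principal transcript of the annotation starts more than 1 kb from the 5′ end of the gene record. With the window moved to that start, an alternative chosen after the data were seen, Gad1 had levels of 4.52 and 4.10 in the uninjured M and F libraries and 8.41 and 3.30 in the 1 dpi M and F libraries, and Homer1 2.39 and 5.34 in the uninjured M and F libraries and 2.16 and 2.37 in the 1 dpi M and F libraries. Rbfox3 averaged 7.84 ± 2.36 and Dlg4 11.8 ± 2.93 at that start. Nrxn3 went to 0.562 ± 0.417.

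The synapse genes were also searched for short sequences on both strands. The SOX form AACAAT was in the start-site window of 19 of 43 genes (44.2%), against 54.7% of other protein-coding genes, and ACAAAG in 23 (53.5%), against 77.0%. The SOX forms share the letters ACAA. Start-site windows had a median GC content of 54.4% in the synapse genes and 51.3% in other protein-coding genes. Shares among genes of like GC content were not computed for these forms. The AP-1 form TGACTCA, whose reverse complement is TGAGTCA, was in 10 (23.3%), against 24.3%. An RE1 element is the sequence that the neuronal repressor REST recognizes, and its core was taken as CAGCACC, 2 bases of any kind and GGACAG. The core was found in the gene-body window of 11 of 43 synapse genes (25.6%), against 418 of 21712 other protein-coding genes (1.93%). Among other genes of like length the share was 5.31% on average over the members. A match is a description of the sequence and says nothing of whether a protein binds there.

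Coverage within 500 bp of the 13 RE1 matches of synapse genes had a median level of 3.28 (uninjured M), 7.56 (uninjured F), 3.22 (1 dpi M) and 4.44 (1 dpi F). The 404 matches in windows of other protein-coding genes had 1.78, 2.28, 1.81 and 1.87. Of the matches in synapse genes 5 lay within 1 kb of a coding start, and 52 of the 404 did. The sequences of 4 matches are shown, because they had the highest mean levels, in the order Grin1, Shank1, Syp and Rbfox3. The RE1 core is in capitals, read in its own direction from GRCm38 (mm10). Grin1 has it in an untranslated part of an exon, Syp in coding sequence, and Shank1 and Rbfox3 in introns.
Grin1, chr2:25319015-25319035, minus strand: cttCAGCACCtcGGACAGcac
Shank1, chr7:44335802-44335822, minus strand: ctcCAGCACCgcGGACAGctc
Syp, chrX:7638736-7638756, plus strand: ctcCAGCACCgtGGACAGagc
Rbfox3, chr11:118906749-118906769, minus strand: cggCAGCACCaaGGACAGggc
Levels at the Grin1 match were 17.3 and 16.5 in the uninjured M and F libraries and 5.13 and 9.11 in the 1 dpi M and F libraries. At the Syp match they were 3.56 and 7.56 uninjured and 9.17 and 8.56 at 1 dpi. The Grin1 and Syp matches lie near the start of each gene, and their coverage overlaps that of the start-site windows.

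Promoters of 32 of the 43 genes were matched by symbol in the RefSeq table of GRCm38.p6, which gives 250 bases before to 50 after each start. Snap25, Syt4, Vamp2, Rims2, Nrxn2, Shank1, Shank2, Grin2a, Grin2b, Gria1 and Camk2a were not matched. The 32 promoters had a median of 17 CG dinucleotides, from 2 to 40, against 7 over the 32851 promoters of the table. Their median GC content was 60.3%, against 52.7% over the table. None of the 32 held AACAAT and 3 held ACAAAG, against 10.7% and 18.7% of all promoters. Some of the promoters belong to a start other than that of the gene record. Those of Homer1, Gad1, Cplx2, Nrxn3, Rbfox3 and Dlg2 lay from 4122 bp (Homer1) to 614114 bp (Dlg2) away. The 3 with ACAAAG were those of Nrxn3, Gad1 and Rbfox3, so none of them lies at the start where coverage was measured. The promoters of Nlgn2 and Chat are shown because they had the highest and the lowest start-site level among the matched promoters that begin within 1 kb of the gene record's start, and capitals mark CG. Nlgn2 has 26 and Chat 10.
Nlgn2, chr11:69837735-69838034, minus strand: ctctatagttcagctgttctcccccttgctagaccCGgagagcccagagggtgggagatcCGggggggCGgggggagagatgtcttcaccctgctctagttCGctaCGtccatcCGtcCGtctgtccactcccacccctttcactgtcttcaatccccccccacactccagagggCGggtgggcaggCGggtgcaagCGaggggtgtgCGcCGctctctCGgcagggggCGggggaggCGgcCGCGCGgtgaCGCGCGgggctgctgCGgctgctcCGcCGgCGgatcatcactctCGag
Chat, chr14:32465860-32466159, minus strand: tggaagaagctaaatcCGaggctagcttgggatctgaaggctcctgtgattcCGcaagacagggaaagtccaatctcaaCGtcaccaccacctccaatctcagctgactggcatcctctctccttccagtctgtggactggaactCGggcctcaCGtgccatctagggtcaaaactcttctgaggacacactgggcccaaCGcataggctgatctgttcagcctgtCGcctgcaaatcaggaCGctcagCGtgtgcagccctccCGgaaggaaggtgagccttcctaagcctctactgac

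The comparison of injured with uninjured cord used limma on log2(level + 0.5), with Benjamini-Hochberg adjustment over all genes tested. At start sites 39 of the 43 synapse genes had the required 20 fragments over the 4 SOX9 libraries. Gad1, Homer1, Shank2 and Chat did not. No synapse gene passed an adjusted p of 0.05 and none had an unadjusted p under 0.05, while among all 14333 genes tested 1 was called higher (0.00698%) and 0 lower (0.0%). Over gene bodies all 43 were tested and again 0 passed, with 0 at an unadjusted p under 0.05, against 1 of 20128 genes called higher (0.00497%) and 0 lower (0.0%). The adjusted p was 1.00 for each synapse gene in both windows. With 2 animals a group, the standard error had a median of 0.65 log2 units at start sites and 0.20 over gene bodies, so the count of 0 at start sites says little. Over gene bodies the changes of the synapse genes ran from −0.37 to 0.23 log2 units, with standard errors from 0.17 to 0.55. Changes of that size could be missed there as well.

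The median log2 change of the synapse genes, 1 dpi minus uninjured, was −0.15 at start sites and −0.15 over gene bodies, against −0.09 and −0.02 over all genes tested. Negative values were found in 24 of 39 synapse genes at start sites (61.5%), against 57.8% of all genes tested. Over gene bodies 35 of 43 were negative (81.4%), against 55.1% of all genes tested. The value depended on the deep uninjured F library. Without it the gene-body median was 0.0009 and 20 of 43 were negative, and the start-site median was 0.30. Without the uninjured M library the medians were −0.29 and −0.63. Thinning every SOX9 library to the depth of the smallest gave −0.13 over gene bodies and −0.11 at start sites.

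By sex, the median change of the synapse genes at start sites was 0.41 in M and −0.70 in F, and over all genes tested it was 0.46 in M and −0.63 in F. Over gene bodies it was 0.02 in M and −0.25 in F, against 0.07 and −0.11 over all genes tested. In F 37 of 43 synapse genes were negative over the gene body, and in M 18 of 43. Of all 20128 genes tested, 12346 were negative in F and 8295 in M. The sex labels were checked only by comparing the M and F SOX9 libraries of each condition with each other. Chromosome Y coverage was higher in the M library in both conditions, and chromosome X coverage was higher in the F library at 1 dpi only. The uninjured pair did not match on chromosome X, with 2.36% of the signal there in M and 1.88% in F. At 1 dpi the shares were 1.93% in M and 2.61% in F. The values by sex depend on these labels, and the cause of the mismatch was not tested. Each sex has 1 library per condition, so an effect of sex and a difference between single libraries cannot be told apart.

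At start sites both 1 dpi libraries lay above both uninjured ones in 1 of 39 tested synapse genes, against 5.77% of all genes tested, and below both in 8, against 14.9%. Syp was the gene above, with a log2 change of 0.90 (SE 0.65). The largest negative changes among those below were in Nrxn3, at −1.10 (SE 0.86), Sv2b, at −0.99 (SE 0.88) from levels of 1.95 and 3.33 in the uninjured M and F libraries and 1.87 and 0.498 in the 1 dpi M and F libraries, and Snap25, at −0.76 (SE 0.64). The other 5 were Dlg4, Grin1, Gria2, Gabrb2 and Slc32a1. At the start of its principal transcript Nrxn3 had 0 and 0.6 in the uninjured M and F libraries and 0.64 and 1.01 at 1 dpi. The order was thus reversed, from 8 fragments, too few for a comparison. The groups of Dlg4 overlapped at that start, with 10.57 and 16.14 uninjured and 9.76 and 10.66 at 1 dpi. In the rest of the 8 both 1 dpi libraries were below both uninjured ones there as well. Gria1 had the most negative start-site change of all, at −1.48 (SE 0.92), but its groups overlapped.

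Over gene bodies both 1 dpi libraries lay above both uninjured ones in 3 of 43 synapse genes, against 12.4% of all genes tested. They were Chat, with a log2 change of 0.23 (SE 0.18), Syp, with 0.22 (SE 0.23), and Pclo, with 0.04 (SE 0.18) from levels of 0.844 and 0.816 in the uninjured M and F libraries and 0.866 and 0.873 in the 1 dpi M and F libraries. Without flanks the groups of Syp and Pclo overlapped, and those of Chat did not. Both 1 dpi libraries lay below both uninjured ones in 16 of 43, against 14.2% of all genes tested. The largest of these were Grin1, at −0.37 (SE 0.37), Syn2, a synapsin that tethers vesicles, at −0.36 (SE 0.19) from levels of 1.60 and 2.12 in the uninjured M and F libraries and 1.32 and 1.35 in the 1 dpi M and F libraries, and Slc32a1, at −0.34 (SE 0.27) from levels of 3.63 and 4.10 in the uninjured M and F libraries and 3.22 and 2.66 in the 1 dpi M and F libraries. The others were Snap25, Syt1, Rims1, Rims2, Sv2b, Nrxn3, Dlg2, Grin2b, Gria2, Gria4, Gabrb2, Gad1 and Slc17a6. Without flanks the groups of Slc32a1 and Gad1 overlapped, and those of the rest of the 16 did not. By role the 16 comprised 6 genes of vesicle release, 1 adhesion gene, 1 scaffold gene, 5 receptor subunits and 3 genes of transmitter synthesis and transport. None of these changes passed the test.

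Because nuclei of several types may contribute and the sort is not certain, fewer neuronal nuclei, less coverage per neuronal nucleus and a difference of the deep uninjured F library cannot be told apart. Of 37 other synapse genes, 28 had a negative gene-body change (median −0.11), and of 13 other neuron genes 11 did (median −0.12). Of 20 astrocyte genes 4 were negative (median 0.12), of 15 microglia genes 5 (median 0.12) and of 15 oligodendrocyte genes 9 (median −0.11). By sex the medians were −0.01 in M and −0.22 in F for other synapse genes, 0.27 and −0.47 for other neuron genes, and 0.23 and −0.44 for oligodendrocyte genes. In other neuron and oligodendrocyte genes the median was thus negative in F only. Astrocyte genes had 0.19 in M and 0.04 in F, and microglia genes 0.15 and 0.12. No gene of these lists passed the test in either window. The summed gene-body level of the 20 astrocyte genes was 52.1 and 58.7 in the uninjured M and F libraries and 64.5 and 54.3 at 1 dpi, with Aldoc the highest and no gene at 0. That of the 15 microglia genes was 25.9 and 30.1 uninjured and 30.8 and 28.0 at 1 dpi, with Aif1 the highest and no gene at 0. For the 43 synapse genes it was 115 and 178 uninjured and 137 and 117 at 1 dpi. The part of other cell types in the values of the synapse genes was not tested.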

How the data were processed

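The authors' deposited signal is coverage, written as whole numbers that were not scaled to sequencing depth, and a single list holds every library. Per the submitters' processing notes, reads were mapped to mm10 with Bowtie2 2.5.4, Picard 3.4.0 took out duplicates and SEACR 1.3 was used for peaks. The step that wrote the coverage is not named. Each rise in coverage along a chromosome was taken as the start of a fragment. Windows came from the gene records of GENCODE M21 on GRCm38, and coverage per base in each was divided by the mean per base of the library on chromosomes 1 to 19 and X. Genes with at least 20 fragments in the window over the 4 SOX9 libraries were tested between 1 dpi and uninjured on log2(level + 0.5) by limma 3.58.1 (R 4.3.3), with a mean-variance trend, two-sided, and Benjamini-Hochberg adjustment over all genes tested. On this scale a change of a low gene is understated. The script was tested on simulated data. Wilson intervals (95%) were computed with scipy 1.17.1 in Python 3.11.15. The controls stayed out of the fit. The synapse genes and the comparison lists were chosen with earlier results of these data known. Values are given for anchor genes, the 3 highest and lowest genes in each window and up to 3 genes in each direction whose groups did not overlap. Other named genes were chosen after their values were seen. Alternatives covered scaling, pseudocount, filter, sex block, window, start, depth, length and GC content of the genes compared (also with at least 20 such genes, added after the data were seen), and each library left out. No gene list was tested as a set.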

Additional observations from a re-analysis of the deposited data

Results flagged for a closer look

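The median log2 change of the synapse genes at 1 dpi had opposite signs in the sexes. At start sites it was 0.41 in M and −0.70 in F, and over gene bodies it was 0.0232 in M and −0.25 in F. Between the M and F SOX9 libraries of each condition, chromosome Y coverage was higher in M in both conditions. Chromosome X coverage was higher in F at 1 dpi only. The uninjured pair did not match on chromosome X (2.36% of the signal in M and 1.88% in F), and the signs by sex depend on its labels. Whether the sexes differ was not tested, since each sex has 1 library per condition. All genes tested had the same signs, at 0.46 and −0.63 at start sites and 0.07 and −0.11 over gene bodies.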

How the results depend on the processing

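No synapse gene passed the test in either window under any of the 18 alternatives at start sites or 16 over gene bodies. The count of all genes changed at start sites (1) was 8 with levels centered on the median, 2 at the principal start (chosen after the data were seen) and 0 with a trimmed mean of log ratios, a pseudocount of 0.1, no filter, at least 100 fragments, all 8 libraries, thinned libraries or a window of 500 bp. With sex as a replicate block it was 0. Leaving out a library gave 0 to 17. Over gene bodies the count (1) was 8 with a trimmed mean of log ratios, 16 with at least 100 fragments, 26 with sex as a replicate block and 0 with centering, all 8 libraries, no trend, thinning, no flanks or no start site, and 0 to 17 without a library. The M and F libraries are different animals. Across genes, the M library's deviation from its group mean correlated between the conditions at −0.06 at start sites and −0.28 over gene bodies. Libraries of a sex thus did not deviate together over all genes, and an effect of sex on some of the genes was not tested. The block changed no call of a synapse gene. The cause of these differences was not tested.

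The median rank of the synapse genes at start sites (58.9) was 66.1 with a window of 2 kb and 50.0 among genes of like length and GC content. It was 57.7 over the 38 genes with at least 20 such genes, an alternative also chosen after the data were seen. Over gene bodies (68.7) it was 51.5 among all other protein-coding genes. Some alternatives, such as the sex block, cannot alter the median change. Of those that gave another value, it was negative under 13 of 14 at start sites and 10 of 11 over gene bodies, from −0.63 to 0.30 and from −0.29 to 0.0009. Median levels moved by less than the spread between replicates, from 4.61 to 6.94 at start sites and from 1.44 to 1.69 over gene bodies. Without a library, the lone library left in a group was assumed to vary like the others. The depth of the controls and the number of fragments at start sites limit what single genes can show.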

Other observations

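Oligodendrocyte genes, which encode myelin proteins and their regulators, had the highest levels among the lists set beside the synapse genes. All 15 lay above the midpoint of genes of like length at start sites (median rank 80.5) and over gene bodies (median rank 92.8). With GC content within 3 percentage points as well, 12 of 15 did at start sites and 15 over gene bodies. Their median gene-body level was 5.98 and 7.41 in the uninjured M and F libraries and 7.27 and 5.51 at 1 dpi. Sox10 was the highest, with gene-body levels of 12.8 and 18.8 uninjured and 12.7 and 10.1 at 1 dpi (M and F). Over gene bodies the median rank was 76.7 for 37 other synapse genes, 62.3 for 13 other neuron genes, 67.5 for 20 astrocyte genes and 54.0 for 15 microglia genes. With the same GC condition it was 64.1, 70.7, 57.9 and 25.9 in the same order, and 96.7 for oligodendrocyte genes. The oligodendrocyte medians exceeded those of the 43 synapse genes in each SOX9 library.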
